A study of Mus musculus with 52 samples.

Results

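Mouse intestinal organoids treated with all-trans retinoic acid (atRA) were compared on day 4 with organoids given only the vehicle, DMSO. The comparison takes 8 of the 52 libraries of the series, the 4 labelled as day 4 with atRA and the 4 labelled as day 4 with DMSO, chosen by their labels and by no measured value. Both groups were grown from wild type C57BL/6 mice of 8 weeks, which were male littermates. The atRA organoids had received 10 µM atRA on day 0 and again on day 3, and the DMSO organoids the vehicle on the same days, and RNA was taken at 96 hours. Both groups had been seeded at 50000 single cells per well, and until day 3 their medium also held Wnt3a-conditioned medium, CHIR99021 (which inhibits GSK3) and Y-27632 (which inhibits ROCK). From day 3 they grew in EGF, Noggin and R-spondin without those additions. Each group holds 2 cultures, 1 from each of 2 mice, with the RNA of 3 pooled wells purified in duplicate. The 2 libraries of a culture were averaged, so n = 2 cultures per group. P-values rest on the spread between the cultures of these 2 animals within a group, shared over all 13 groups of the series. The main fit does not pair the cultures, although the same 2 cultures received both treatments. A fit with the culture as a block is given as an alternative. The segment of the intestine is not given in the sources used here. The series further holds these 2 treatments on days 1, 3 and 5, an antagonist of the retinoid X receptors (RXRi, 5 µM) on each of these days and DMSO organoids on day 0.

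Retinoic acid is made inside cells from vitamin A and acts as a ligand of the retinoic acid receptors, which sit on DNA in pairs with retinoid X receptors. Retinoid X receptors are also the partners of the receptors for fatty acids (PPAR), bile acids (FXR), oxysterols (LXR) and vitamin D. In the small intestine, absorptive enterocytes take up dietary vitamin A, esterify most of it for export in chylomicrons and oxidise some of it to retinoic acid, which CYP26 enzymes break down. Organoids are epithelial cultures that organise themselves from intestinal stem cells and form absorptive enterocytes and secretory Paneth, goblet, enteroendocrine and tuft cells.

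On day 4, 6 of 9 tested genes of ileal bile acid handling, 35 of 44 targets of the PPAR receptors and 11 of 27 genes of chylomicron assembly were higher in atRA organoids than in DMSO organoids. Of 28 tested genes of fetal-like and regenerating epithelium, annexins and S100 proteins among them, 15 were lower, as were both main chains of type IV collagen. Of all genes tested, 3.58% were higher and 7.35% lower. Levels are given as RPKM, reads scaled by gene length and library total, and changes as the difference in log2(RPKM + 1), atRA minus DMSO, with its standard error; this scale understates changes of genes at low levels. These shares stand for 446 higher and 915 lower genes of 12445, at an adjusted p under 0.05 (limma, Benjamini-Hochberg adjustment over all genes tested). Of these, 173 and 101 changed at least 2-fold. The difference had 1 sign in both cultures for all 446 and 915 genes, and the 4 atRA libraries lay wholly above or below the 4 DMSO libraries for 438 and 896 of them. Over all genes tested, the libraries lay apart in this way for 931 genes that were higher (7.48%) and 3467 that were lower (27.9%). The 8 libraries held 17977100 to 26206028 reads and 15102 to 15404 genes above 0.

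The median gene stood at -0.12 as deposited, and 27.13% of the genes tested were above 0. Genes called higher took 13.7 to 15.2% of the reads in atRA libraries, against 6.71 to 7.09% in DMSO libraries, and Fabp1 alone took 1.07 to 1.17%, against 0.105 to 0.124%. RPKM divides by the total of a library, and median-of-ratios scaling moved the median gene to 0.02, and the median of the shifts of single genes was 0.154. With that scaling 664 genes were higher (5.34%) and 367 lower (2.95%), among them all 446 genes called higher as deposited and 367 of the 915 called lower. The counts of genes in each list below are therefore given as deposited and, in the words "with scaling", after it, and "1 culture left out" stands for the 4 fits that each omit 1 of the 4 day 4 cultures. These fits do not pair the cultures, so that differences between the 2 cultures also enter the effect, and a lost call does not show that it rested on 1 culture. The counts also moved with the cultures: without atRA culture 2, 214 genes were higher and 203 lower, and without DMSO culture 1, 246 and 285. Without atRA culture 1 or DMSO culture 2, 556 and 578 genes were lower. With the shallow library of day 1 kept in the fit (12443 reads, in a group not compared here, whose spread all groups share), 173 genes were higher and 90 lower. Of the lists below, 27 PPAR targets, 4 bile acid genes and 8 enterocyte markers then rose, and 9 fetal-like genes, 4 YAP targets and 0 mitosis genes fell. Isx, Tgm2, Adh4, Fabp5, Apoa1, Abcg2, Jag2, Muc2 and H2-Q1, described below, kept their calls with any 1 culture left out but not with that library kept. Of 134 called genes named by a fixed rule, 55 lost the call with it and 72 in a fit of the day 4 libraries alone, while 48 kept it in every alternative run for them.

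**Figure D1:**
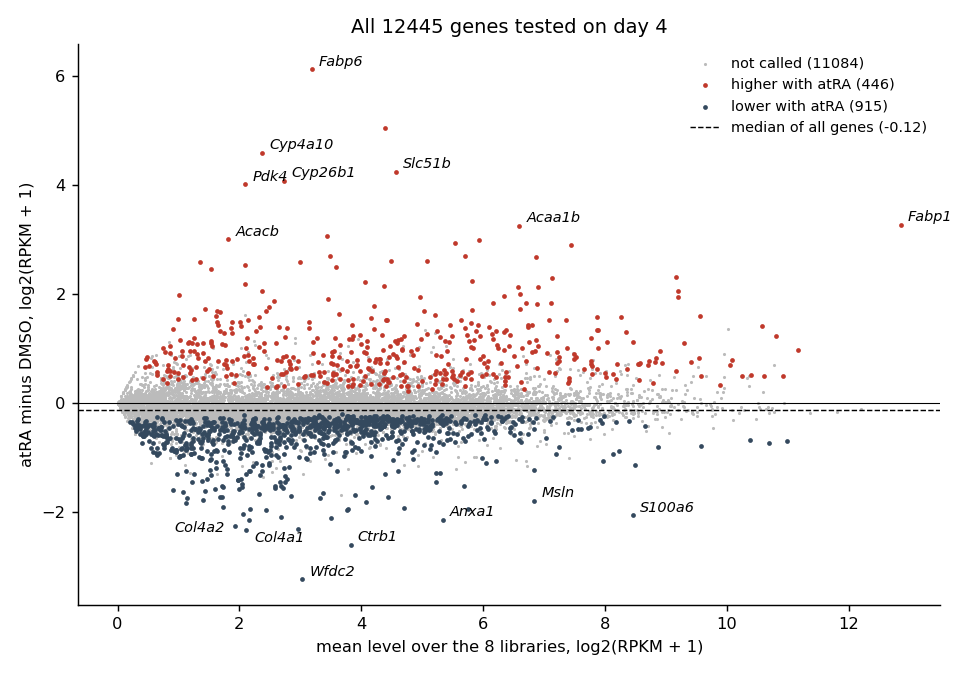
Each point is a gene tested on day 4, with its mean log2(RPKM + 1) over the 8 libraries on the x axis and the atRA minus DMSO difference in log2(RPKM + 1) on the y axis. Red points are the 446 genes called higher with atRA, dark blue points the 915 called lower and grey points the rest; the dashed line marks the median of all genes at -0.12, and Fabp1 lies far to the right of the other named genes.

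**Figure D2:**
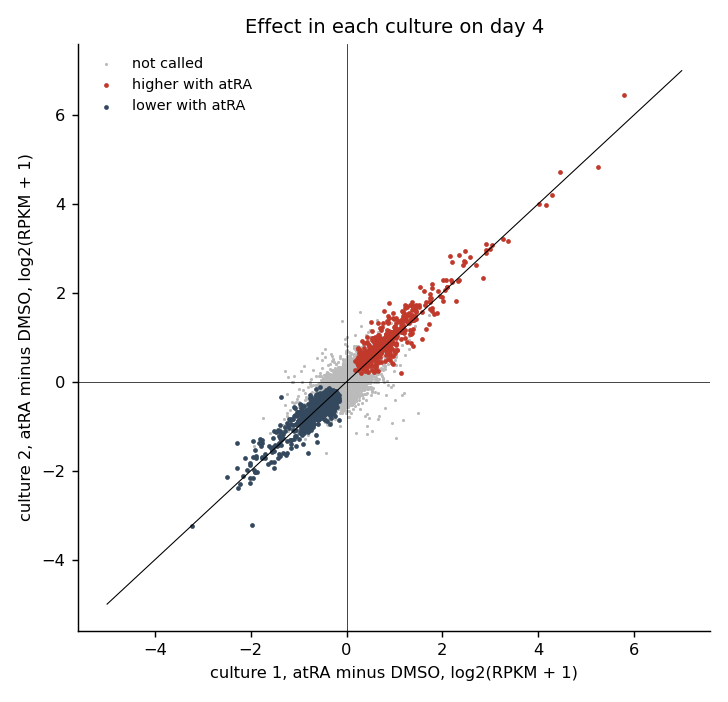
The atRA minus DMSO difference in log2(RPKM + 1) on day 4 is plotted for culture 1 (x axis) and culture 2 (y axis), 1 point per gene tested, with the line of equal change. Genes called higher (red) and lower (dark blue) lie in the quadrants where both cultures changed the same way.

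Of the genes that retinoic acid receptors are known to control, some rose, some did not pass the test and many were too low to be tested. Of 20 listed genes for the clearance of retinoic acid and for its direct targets, 11 were below the filter on low values (at least 1 RPKM in at least 4 of all libraries). Of the 9 tested, 4 rose and 0 fell, with and without scaling, against 3.58% higher and 7.35% lower over all genes tested. The median of the 9 was 0.00. Cyp26b1 (chr6:84571414-84593908 in GRCm38.p6), which encodes an enzyme that oxidises retinoic acid for disposal, had 33.1, 32.6, 20.2 and 21.8 RPKM in the atRA libraries, against 0.914, 0.878, 0.415 and 0.368 RPKM in the DMSO libraries. All atRA libraries exceeded all DMSO libraries, culture 1 stood above culture 2 in both groups, and the gene rose by 4.07 ± 0.34 (adjusted p = 1.1e-06). The 2 other CYP26 genes were near 0: Cyp26a1 had 0 reads in all 8 libraries and Cyp26c1 reached at most 0.0283 RPKM. Dhrs3, which reduces retinal back to retinol, had 78.1, 76.4, 84.9 and 80.1 RPKM with atRA, against 34.5, 35.4, 37.1 and 36.4 RPKM with DMSO, and rose by 1.13 ± 0.18 (adjusted p = 0.00077). Isx, a homeobox repressor of vitamin A uptake, rose by 0.89 ± 0.14 and the transglutaminase gene Tgm2 by 0.85 ± 0.10. The libraries of the 2 groups did not overlap for any of these 4 genes. Rarb, a textbook target of retinoic acid, stayed under the filter, with 0.0440 to 0.0716 RPKM in atRA libraries and 0.0772 to 0.124 RPKM in DMSO libraries. Nrip1 (0.00 ± 0.17), Cdx1 (-0.27 ± 0.22), Rdh10 (-0.39 ± 0.19), Lrat (-0.32 ± 0.11) and Nr2f2 (-0.20 ± 0.11) did not pass the test. Lrat passed it with the culture as a block in the fit (adjusted p = 0.043).

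The receptors themselves did not pass the test. Of the 6 genes for retinoic acid and retinoid X receptors, 4 were tested, and 0 were called in either direction by limma with or without scaling or by limma-voom, and 0 at an unadjusted p under 0.05. They were Rara (0.02 ± 0.10), Rarg (-0.27 ± 0.23), Rxra (-0.11 ± 0.08) and Rxrb (0.01 ± 0.12). Rxra, at 20.9, 21.2, 21.2 and 22.1 RPKM with atRA, against 20.9, 23.4, 24.7 and 23.5 RPKM with DMSO, overlapped between the groups. Rarb and Rxrg were below the filter. Among 27 other nuclear receptors tested, 5 rose and 1 fell, with and without scaling (median -0.02); without atRA culture 2, 2 rose and 0 fell. Ppara, the receptor for fatty acids, had 29.4, 31.9, 41.8 and 38.4 RPKM with atRA, against 10.5, 10.6, 12.9 and 12.4 RPKM with DMSO, and rose by 1.52 ± 0.15 (adjusted p = 5.6e-06). Nr0b2, which encodes the small heterodimer partner induced by bile acids, rose by 1.54 ± 0.24, with 1.92 to 3.42 RPKM in atRA libraries, against 0.0740 to 0.260 RPKM with DMSO. The pregnane X receptor gene Nr1i2 rose by 0.53 ± 0.11 and the bile acid receptor gene Nr1h4 by 0.59 ± 0.13. The Nr1i2 call was lost without atRA culture 2 (adjusted p = 0.060) and that of Nr1h4 without atRA culture 2 (adjusted p = 0.091). Pparg, named after its values were seen as the 1 receptor that fell, had 16.9, 16.7, 13.3 and 13.3 RPKM with atRA, against 36.3, 41.2, 24.8 and 28.3 RPKM with DMSO, a change of -1.05 ± 0.23 (adjusted p = 0.0069).

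Genes of vitamin A uptake and storage moved both ways. Of 13 tested, 4 rose and 4 fell (5 and 4 with scaling, median -0.15), and without DMSO culture 2, 2 fell. Retsat, a retinol saturase and known PPAR target, had 294, 312, 324 and 302 RPKM with atRA, against 56.7, 62.8, 64.9 and 62.8 RPKM with DMSO, and rose by 2.30 ± 0.19 (adjusted p = 9e-07). Cd36, which binds fatty acids and carotenoids at the cell surface, rose by 2.17 ± 0.24 (adjusted p = 1.9e-05). The retinol-binding protein genes differed from each other. Rbp7 had 2.54, 2.89, 4.27 and 3.40 RPKM with atRA, against 7.68, 9.66, 11.5 and 12.4 RPKM with DMSO, and changed by -1.40 ± 0.25 (adjusted p = 0.0016). Rbp2, the abundant carrier of retinol in enterocytes, had 1318, 1330.5, 2170.3 and 1967 RPKM with atRA, against 495, 541, 759.6 and 862 RPKM with DMSO. The Rbp2 libraries did not overlap, but the cultures differed within each group and the change of 1.35 ± 0.44 missed the threshold (adjusted p = 0.057); it passed with scaling (adjusted p = 0.048) and with the culture as a block (adjusted p = 0.0036). Enzymes that oxidise retinol and retinal leaned 1 way: of 17 tested, 5 rose and 0 fell, with and without scaling (median 0.37), and 3 rose without atRA culture 2. The retinal dehydrogenase gene Aldh1a1 had 302, 303, 553 and 513 RPKM with atRA, against 92.8, 108, 157 and 204 RPKM with DMSO, and rose by 1.58 ± 0.30 (adjusted p = 0.0031). That call was lost without atRA culture 2 or DMSO culture 1 (adjusted p up to 0.073). Adh4 (1.71 ± 0.22) and Aldh1a7 (1.46 ± 0.15) kept theirs in each of the 4 fits that left out 1 culture.

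A bile acid carrier of the ileum gave the largest rise of the comparison. Fabp6 (chr11:43596040-43601562), the ileal bile acid-binding protein, had 55.3, 53.5, 115 and 91.9 RPKM in atRA libraries, against 0, 0, 0.179 and 0.206 RPKM in DMSO libraries. These levels stand for 580, 620, 1087 and 1228 reads with atRA, against 0, 0, 2 and 2 reads with DMSO, and the change was 6.12 ± 0.32 (adjusted p = 2.3e-09). Its size depends on the pseudocount of 1 RPKM, since DMSO libraries were at or near 0; with 0.1 RPKM it was 8.77. The 300-base window around its start, 250 bases before and 50 after (GRCm38.p6, chr11:43601513-43601812, minus strand, sequence from RefSeq), is shown because it holds an inverted repeat with 1 base between the arms, the layout that FXR with a retinoid X receptor is known to bind.
Fabp6 promoter: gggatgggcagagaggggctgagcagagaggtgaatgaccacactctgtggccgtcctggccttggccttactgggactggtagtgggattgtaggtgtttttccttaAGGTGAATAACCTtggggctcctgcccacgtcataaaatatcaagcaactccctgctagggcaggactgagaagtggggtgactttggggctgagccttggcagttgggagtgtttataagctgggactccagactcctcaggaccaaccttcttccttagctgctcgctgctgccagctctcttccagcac
The capitals mark the match to the arm AGGTNA, 1 base and the arm's reverse complement, 142 to 130 bases before the start; this motif reads the same on both strands. It was found in 1 of 12431 windows of tested genes (0.00804%), the one above, and in 7 of 32851 windows of all genes (0.0213%). The free base N was placed otherwise in the arms of the motifs below, and other letters were not searched. The share of windows with a match depends on that choice of letters and is no test of the gene. A match describes letters and is not a binding site shown by these data.

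Other genes of bile acid handling rose beside Fabp6. Of 9 tested genes of the FXR and ileal bile acid list, 6 rose and 0 fell, with and without scaling, with a median of 1.54, against -0.12 over all genes, and 4 to 5 rose with 1 culture left out. Slc51b, the beta subunit of the transporter that passes bile acids out of the enterocyte, had 95.5, 93.3, 113 and 107 RPKM with atRA, against 3.19, 4.67, 5.72 and 4.42 RPKM with DMSO, and rose by 4.24 ± 0.25 (adjusted p = 9.8e-09). Its partner Slc51a rose by 1.94 ± 0.26 (adjusted p = 0.00013). Every atRA library exceeded every DMSO library for both subunits. Fgf15, the hormone by which the ileum slows bile acid synthesis in the liver, had 33.1, 28.8, 25.1 and 23.8 RPKM with atRA, against 4.77, 3.89, 2.76 and 2.51 RPKM with DMSO, a rise of 2.70 ± 0.66 (adjusted p = 0.016). The groups did not overlap, yet the Fgf15 call was lost with any 1 of the 4 cultures left out (adjusted p up to 0.092). Slc10a2, the bile acid importer of the ileum, was named after its values were seen; it had 0.746, 0.513, 0.464 and 0.398 RPKM with atRA, against 1.50, 1.83, 0.955 and 1.36 RPKM with DMSO (-0.65 ± 0.29, adjusted p = 0.15).

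**Figure D3:**
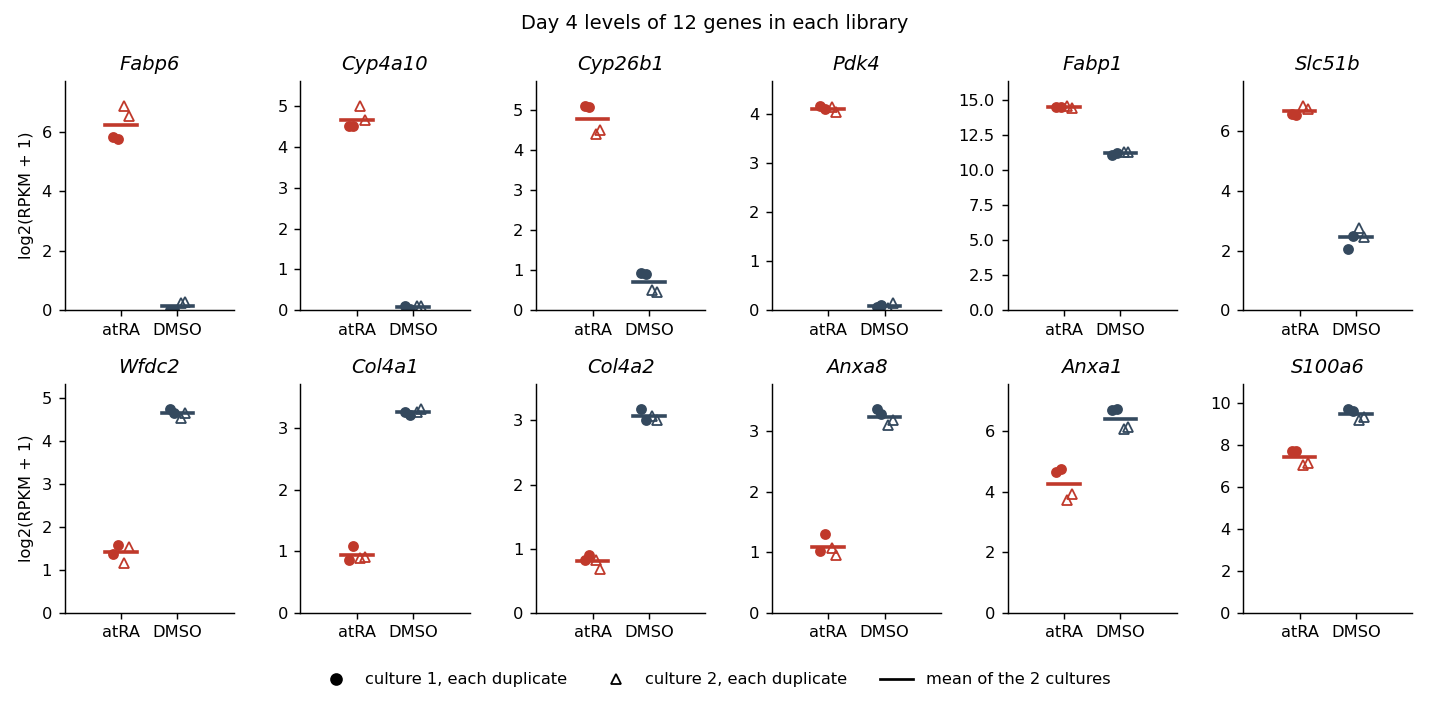
Points give log2(RPKM + 1) in each day 4 library for 6 of the largest rises (top) and 6 of the largest falls (bottom), atRA left and DMSO right, with filled circles for culture 1, open triangles for culture 2 and a line at the mean of the 2 cultures. In all 12 panels the 4 atRA libraries lie on 1 side of the 4 DMSO libraries; Fabp6 lies at 53.5 to 115 RPKM with atRA and 0 to 0.206 RPKM with DMSO.

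PPAR targets held the largest share of rises among the lists. These genes burn, bind or store fatty acids under the control of the PPAR receptors; of 44 tested, 35 rose and 0 fell (38 and 0 with scaling), with a median of 1.19, and 33 to 34 rose with 1 culture left out. Pdk4, the kinase that turns pyruvate away from oxidation, had 16.7, 16.0, 16.6 and 15.4 RPKM with atRA, against 0.0483, 0.0824, 0.0265 and 0.107 RPKM with DMSO, and rose by 4.01 ± 0.29 (adjusted p = 1.8e-07). The atRA libraries lay within a narrow band far above the DMSO libraries. Cyp4a10, a fatty acid hydroxylase, rose by 4.59 ± 0.13, with 21.7 to 30.8 RPKM in atRA libraries, against 0.0183 to 0.0813 RPKM with DMSO. Its near-identical neighbours Cyp4a31 (1.98 ± 0.10) and Cyp4a32 (2.59 ± 0.13) rose too, and reads of these copies may be split or shared between them. The same uncertainty holds for the acyl-CoA thioesterases Acot1 (2.99 ± 0.27) and Acot2 (2.94 ± 0.25), which free fatty acids from coenzyme A. Acot1 had 144, 138, 209 and 203 RPKM with atRA, against 15.6, 17.9, 26.8 and 23.8 RPKM with DMSO. In the peroxisome, the thiolase gene Acaa1b had 264, 266, 336 and 324 RPKM with atRA, against 27.4, 25.8, 35.0 and 34.2 RPKM with DMSO, and rose by 3.24 ± 0.22 (adjusted p = 5.5e-08). Cpt1a, the gatekeeper of fatty acid entry into mitochondria, was named after its values were seen and rose by 1.07 ± 0.09. Among other large rises, Hsd17b11, a dehydrogenase of lipid droplets, rose by 2.90 ± 0.14 and the aldose reductase relative Akr1b7 by 2.70 ± 0.23.

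Fabp1, the liver-type fatty acid-binding protein of enterocytes, was the most abundant of the leading genes. It had 23138, 23273, 23842 and 21801 RPKM in atRA libraries, against 2139, 2352, 2515 and 2529 RPKM in DMSO libraries, and rose by 3.27 ± 0.36 (adjusted p = 1.6e-05). The 4 libraries of each group lay close together and the groups were far apart. Its window (chr6:71199629-71199928, plus strand) is shown because it holds a direct repeat with 1 base between the arms, the layout known for PPAR with a retinoid X receptor.
Fabp1 promoter: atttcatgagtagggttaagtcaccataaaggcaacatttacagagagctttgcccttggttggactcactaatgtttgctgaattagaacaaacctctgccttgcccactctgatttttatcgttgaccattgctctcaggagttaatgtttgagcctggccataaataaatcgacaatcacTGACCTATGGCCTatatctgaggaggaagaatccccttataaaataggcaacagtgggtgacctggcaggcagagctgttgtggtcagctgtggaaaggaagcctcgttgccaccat
The capitals mark a match, on the other strand, to the arm AGGNCA written 2 times with 1 base between, 67 to 55 bases before the start. Searched on both strands, this motif was found in 36 of 12431 windows of tested genes (0.29%) and in 125 of all 32851 (0.381%). Of the 15 largest rises, 12 genes had a window and 1 held the motif (Fabp1), while of the 15 largest falls 13 genes had a window and 0 held the motif. Of 35 PPAR targets that rose, 27 had a window, and Fabp1 alone (3.7%) held it. The direct repeats of NGNTCA with 2 bases and with 5 bases between the arms, layouts known for retinoic acid receptors, were found in 0 of those 12 risen genes. They were found in 0.684% and 0.579% of the windows of tested genes. A gene can have more than 1 window, so shares of genes and shares of windows differ in unit. The repeat with 2 bases was found in 2 of the 27 PPAR targets that rose (7.41%), Hadha and Hadhb, whose windows overlap, and in 1 of 10 apolipoprotein and chylomicron genes that rose, Apoa1; the repeat with 5 bases was found in 0 of either. No match says only that these letters are not in this window.

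The family of intracellular lipid-binding proteins, which carry fatty acids, bile acids and retinoids through the cytosol, split into rises and falls. Of 15 genes 8 were tested; 3 rose and 3 fell (4 and 3 with scaling, median 0.66). Beside Fabp6 and Fabp1, the intestinal fatty acid-binding protein gene Fabp2 had 969.9, 997, 1803 and 1512 RPKM with atRA, against 173, 215, 314 and 361 RPKM with DMSO, and rose by 2.32 ± 0.33 (adjusted p = 0.00029). Fabp5, a carrier known from skin, had 18.0, 16.8, 12.5 and 12.4 RPKM with atRA, against 36.8, 38.0, 32.2 and 39.0 RPKM with DMSO, and changed by -1.25 ± 0.13 (adjusted p = 7.1e-06). The groups of libraries did not overlap for Fabp2 or Fabp5. Fabp4 had at most 0.0740 RPKM in these 8 libraries.

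Among genes that load lipid into chylomicrons there were rises and no falls, as deposited and with scaling. Nearly all genes of cholesterol synthesis missed the threshold. Of 27 tested genes for apolipoproteins and chylomicron assembly, 11 rose and 0 fell (14 and 0 with scaling), with a median of 0.59. With the shallow library of day 1 kept in the fit, 7 rose and 0 fell. Apoa4, an apolipoprotein that enterocytes secrete on chylomicrons, had 1366, 1341, 1049.9 and 1065 RPKM with atRA, against 230.4, 329, 306 and 293 RPKM with DMSO, and rose by 2.06 ± 0.45 (adjusted p = 0.0081), a call lost without atRA culture 1 or DMSO culture 1 (adjusted p up to 0.066). Apoa1, the main protein of high-density lipoprotein, rose by 1.59 ± 0.24, with 1147 to 1454 RPKM in atRA libraries, against 390.5 to 471 RPKM with DMSO. Both lay apart between the groups. Apoc2, the activator of lipoprotein lipase, had 192, 187, 212 and 198 RPKM with atRA, against 39.5, 47.7, 43.7 and 47.9 RPKM with DMSO, and rose by 2.12 ± 0.27 (adjusted p = 9e-05); a gene model overlaps it, so its reads may be shared. Plin2, which coats lipid droplets, rose by 1.72 ± 0.20, and Mttp, which transfers lipid onto apolipoprotein B, by 0.96 ± 0.17. The Apoc2 window (chr7:19677892-19678191, minus strand) is shown because, of 10 risen genes of this list with a window, Apoc2 alone held the direct repeat found at Fabp1.
Apoc2 promoter: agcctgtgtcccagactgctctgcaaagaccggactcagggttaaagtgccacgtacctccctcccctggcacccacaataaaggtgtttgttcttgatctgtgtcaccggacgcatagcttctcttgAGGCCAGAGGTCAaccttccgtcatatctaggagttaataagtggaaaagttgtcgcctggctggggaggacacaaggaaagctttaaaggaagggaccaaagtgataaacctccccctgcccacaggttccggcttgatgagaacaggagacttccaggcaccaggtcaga
The capitals mark the match to the same repeat of AGGNCA, 122 to 110 bases before the start.

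Of 12 tested LXR targets, which move sterols and unsaturated lipids, 6 rose and 1 fell, with and without scaling (median 0.56), and 4 to 6 rose with 1 culture left out. The sterol exporter subunits Abcg5 and Abcg8 rose by 1.34 ± 0.23 and 1.24 ± 0.19, and Lpcat3, which puts polyunsaturated chains into membrane lipids, by 1.01 ± 0.11. Scd1, the desaturase that makes oleate, had 1162, 1210.3, 1142 and 1087 RPKM with atRA, against 339, 351, 263 and 250.1 RPKM with DMSO, and rose by 1.95 ± 0.31 (adjusted p = 0.00070). In fatty acid synthesis 5 of 17 genes rose and 0 fell (6 and 0 with scaling, median 0.25), and 3 rose without atRA culture 2. Acacb, the acetyl-CoA carboxylase of the mitochondrial surface, rose by 3.00 ± 0.18, with 8.16 to 9.75 RPKM in atRA libraries, against 0.205 to 0.304 RPKM with DMSO, and the malic enzyme gene Me1 rose by 1.82 ± 0.19. Acaca, the cytosolic carboxylase, rose by only 0.35 ± 0.08 and lost its call without atRA culture 2 or DMSO culture 1 (adjusted p up to 0.084). Among 25 genes of cholesterol synthesis, 1 rose (Tm7sf2, 0.55 ± 0.14) and 1 fell (Srebf2, -0.33 ± 0.09); with scaling 0 fell (Srebf2 adjusted p = 0.25). The Tm7sf2 call was lost with any 1 of the 4 cultures left out (adjusted p up to 0.13), and that of Srebf2 with any 1 of the 4 cultures left out (adjusted p up to 0.14). The median of that list was -0.07, near the median of all genes.

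**Figure D4:**
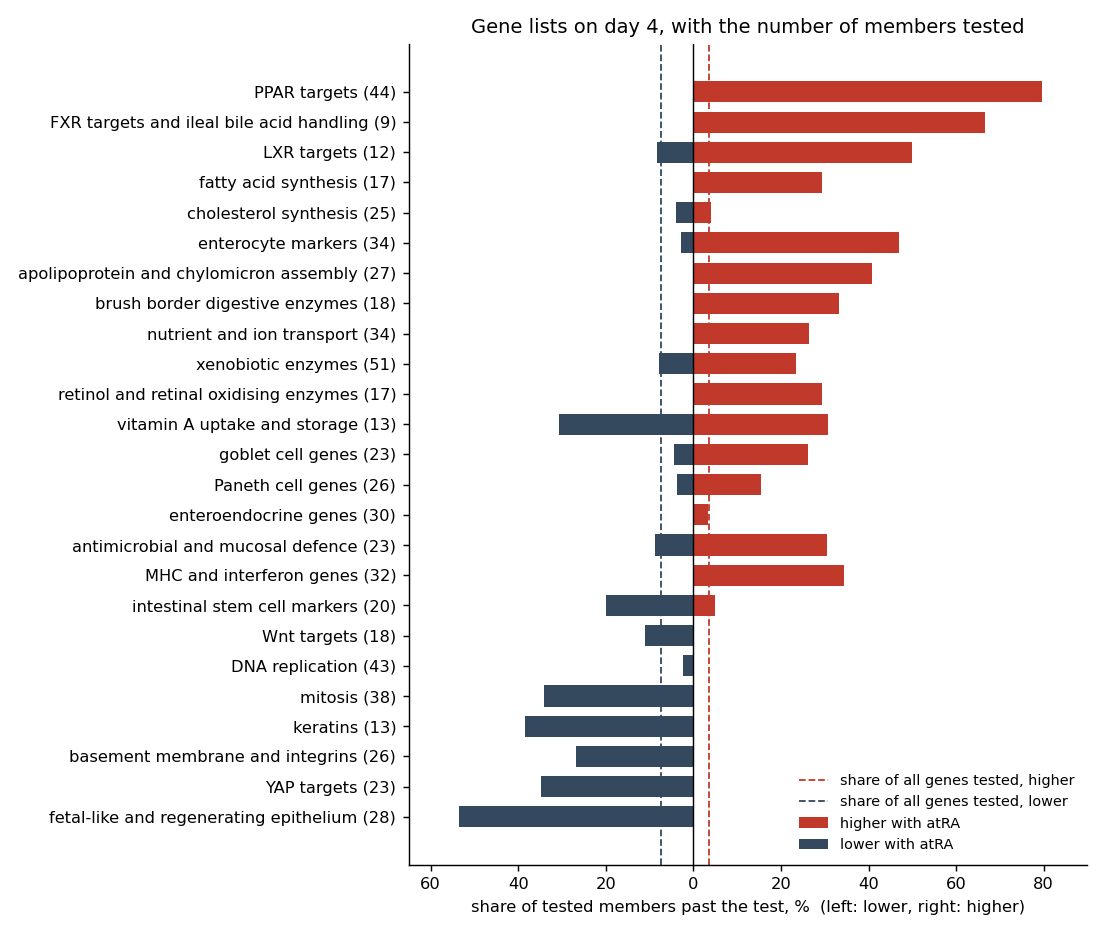
A selection of the 45 gene lists is shown, each named with the number of its members tested, with calls as deposited. The bars give the percentage of tested members called higher with atRA (red, to the right) and lower with atRA (dark blue, to the left). The dashed lines give the percentage of all genes tested, 3.58% higher and 7.35% lower. Among the lists shown, PPAR targets (35 of 44) and FXR targets (6 of 9) reach farthest to the right and fetal-like genes (15 of 28) farthest to the left.

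Among markers of absorptive enterocytes, rises far outnumbered falls. Of 34 tested, 16 rose and 1 fell (18 and 0 with scaling), with a median of 0.78, and 10 to 14 rose with 1 culture left out, the fewest without atRA culture 2. Of 7 defining enterocyte markers 6 rose, and together they summed to 4648 to 5676 RPKM with atRA, against 1498 to 1856 RPKM with DMSO. In bulk RNA, more cells of a type and more RNA per cell cannot be told apart. The aminopeptidase gene Anpep had 248, 246, 317 and 306 RPKM with atRA, against 74.9, 72.7, 124 and 128 RPKM with DMSO, and rose by 1.51 ± 0.23 (adjusted p = 0.00053). Sucrase-isomaltase (Sis), at 284, 295, 357 and 323 RPKM with atRA, against 209.7, 214, 208 and 206 RPKM with DMSO, did not overlap between the groups but missed the threshold (adjusted p = 0.099). Lgals2, the 1 marker that fell (-0.73 ± 0.18), was named after its values were seen and was not called with scaling (adjusted p = 0.071). Of 18 digestive enzymes of the brush border 6 rose and 0 fell (7 and 0 with scaling, median 0.60). Naaladl1 rose by 2.60 ± 0.44, the metalloprotease gene Mep1b by 1.43 ± 0.14 and Dpp4 by 0.72 ± 0.16, the last a call lost without atRA culture 2 (adjusted p = 0.064). Without that culture 3 of the 18 enzymes rose. Genes for the skeleton of the microvillus moved less: 2 of 20 rose and 0 fell (3 and 0 with scaling, median 0.18), and 1 rose without atRA culture 2. Myo1a, the myosin of the microvillus, stood at 0.26 ± 0.14 and missed the threshold (adjusted p = 0.21).

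Among 34 genes for the transport of nutrients and ions, 9 rose and 0 fell (12 and 0 with scaling, median 0.55), and 4 to 8 rose with 1 culture left out, the fewest without atRA culture 2. S100g, the calcium buffer calbindin that vitamin D induces, had 188, 199, 379 and 328 RPKM with atRA, against 58.3, 74.8, 75.2 and 83.9 RPKM with DMSO, and rose by 1.84 ± 0.26 (adjusted p = 0.00023). Slc22a5, the carnitine importer, rose by 1.22 ± 0.12, the chloride exchanger gene Slc26a3 by 1.01 ± 0.17 and the exporter gene Abcg2 by 0.87 ± 0.12. The libraries lay apart for these 4 genes. Of 21 genes of hexose metabolism 6 rose and 0 fell, with and without scaling (median -0.03), and 3 to 4 rose with 1 culture left out, the fewest without atRA culture 2. G6pc, which releases glucose from its phosphate, had 26.1, 26.5, 36.2 and 33.3 RPKM with atRA, against 2.27, 2.35, 3.85 and 2.73 RPKM with DMSO, and rose by 3.06 ± 0.37 (adjusted p = 4.5e-05). Fbp1, an enzyme of the same pathway, rose by 1.17 ± 0.22. Genes typical of the proximal small intestine and of the distal small intestine rose side by side: 6 of 20 rose and 1 fell in the proximal list (9 and 1 with scaling), and 5 of 13 rose and 0 fell in the distal list (6 and 0 with scaling). The medians were 0.66 and 0.47. With 1 culture left out, 2 to 3 proximal genes rose, the fewest without atRA culture 1, and 3 to 5 distal genes, the fewest without atRA culture 2. The glucose carrier gene Slc2a2, a proximal gene, rose by 1.17 ± 0.29 but lost that call without atRA culture 1, atRA culture 2 or DMSO culture 2 (adjusted p up to 0.13). Guca2b, which encodes uroguanylin and is on the distal list, rose by 1.22 ± 0.24 and lost the call without atRA culture 2 or DMSO culture 1 (adjusted p up to 0.068).

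Among enzymes that process foreign compounds, rises exceeded the share over all genes tested and falls were near it. Of 51 tested, 12 rose and 4 fell (14 and 2 with scaling, median 0.37). Over all genes tested, 3.58% were higher and 7.35% lower (5.34% and 2.95% with scaling). With 1 culture left out 6 to 14 rose and 2 to 3 fell, the fewest without atRA culture 2. The glutathione transferase gene Gstm1 had 2442, 2521, 2474 and 2484 RPKM with atRA, against 1038, 989, 825 and 909 RPKM with DMSO, and rose by 1.40 ± 0.21 (adjusted p = 0.00033). Ces1f (2.00 ± 0.25) and Ces1g (1.19 ± 0.19), carboxylesterases of 1 cluster of similar copies, rose as well. Akr1c14, a hydroxysteroid dehydrogenase, had 1.35, 1.60, 1.10 and 1.17 RPKM with atRA, against 6.60, 8.40, 4.29 and 4.80 RPKM with DMSO, and changed by -1.57 ± 0.19 (adjusted p = 4.9e-05).

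Among secretory cell genes, those of goblet cells were called higher more often than those of Paneth, enteroendocrine or tuft cells. Several of these calls were lost with 1 culture left out. Of 23 goblet cell genes 6 rose and 1 fell (9 and 1 with scaling, median 0.29), and 3 to 4 rose with 1 culture left out, the fewest without atRA culture 1. All 5 defining goblet markers rose, and together they summed to 2071 to 2707 RPKM with atRA, against 1131 to 1283 RPKM with DMSO. Clca1, secreted with mucus, had 389, 389.6, 223 and 215 RPKM with atRA, against 52.5, 66.5, 30.4 and 38.8 RPKM with DMSO, and rose by 2.67 ± 0.40 (adjusted p = 0.00041). Muc2, the gel-forming mucin of the intestine, rose by 1.42 ± 0.24; its DMSO libraries at 10.5, 3.96, 9.21 and 9.37 RPKM differed more within culture 1 than between the cultures. The fall in that list was S100a6, which is also listed with the fetal-like genes below. Of 26 Paneth cell genes 4 rose and 1 fell (5 and 0 with scaling, median 0.41), but 0 to 1 rose with 1 culture left out, none of them without atRA culture 1. Of the 5 defining Paneth markers 2 rose, and together the 5 summed to 2094 to 2332 RPKM with atRA, against 1294 to 1710 RPKM with DMSO. The matrix metalloprotease gene Mmp7, which activates defensins in mouse Paneth cells, rose by 1.39 ± 0.33 and lost the call without atRA culture 1 or DMSO culture 2 (adjusted p up to 0.11). The call of Itln1 (0.75 ± 0.21) was lost with any 1 of the 4 cultures left out (adjusted p up to 0.14) and that of Habp2 (0.48 ± 0.14) with any 1 of the 4 cultures left out (adjusted p up to 0.14). Of 30 enteroendocrine genes 1 rose, the chromogranin gene Chga (0.59 ± 0.18), with 3 rises under scaling and a median of 0.34. The Chga call was lost with any 1 of the 4 cultures left out (adjusted p up to 0.17) and also without library 1 of atRA culture 1 or library 1 of DMSO culture 2 (adjusted p up to 0.067). Of 8 tested tuft cell genes 0 rose and 2 fell, Avil (-0.83 ± 0.15), at 0.138 to 0.218 RPKM with atRA and 0.528 to 1.53 RPKM with DMSO, and Ptgs1 (-0.38 ± 0.10), at 0 to 0.153 and 0.220 to 0.485 RPKM. Avil lost its call without DMSO culture 1 (adjusted p = 0.051) and Ptgs1 with any 1 of the 4 cultures left out (adjusted p up to 0.21) or without library 2 of atRA culture 1, library 1 of DMSO culture 1 or library 1 of DMSO culture 2 (adjusted p up to 0.073).

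Defence genes of the epithelium rose more often than they fell. Of 23 tested, 7 rose and 2 fell (9 and 2 with scaling, median 0.54), and 3 to 8 rose with 1 culture left out, the fewest without DMSO culture 1. Pigr, the receptor that carries antibodies across the epithelium, had 906, 922, 1093 and 1039 RPKM with atRA, against 494, 502, 615 and 619 RPKM with DMSO, and rose by 0.83 ± 0.12 (adjusted p = 0.00029). The cytokine gene Il18 rose by 1.38 ± 0.23, and Dmbt1, a scavenger protein of mucus, by 1.11 ± 0.26, a call lost without atRA culture 2 or DMSO culture 1 (adjusted p up to 0.099). Wfdc2 (chr2:164562715-164568510), a secreted protein with protease inhibitor domains, went the other way and was the largest fall of the comparison. It had 1.58, 1.99, 1.22 and 1.89 RPKM with atRA, against 25.8, 24.0, 22.3 and 24.0 RPKM with DMSO, a change of -3.24 ± 0.27 (adjusted p = 1.1e-06). No atRA library came near a DMSO library. Of 32 genes for MHC class I and interferon responses, 11 rose and 0 fell (17 and 0 with scaling, median 0.32); 2 to 10 rose with 1 culture left out, the fewest without atRA culture 2. H2-Q1 rose by 1.11 ± 0.19 and Irf1, a transcription factor that controls them, by 0.62 ± 0.10; H2-Q2 (1.24 ± 0.25) lost its call without atRA culture 2 (adjusted p = 0.082) and H2-D1 (0.36 ± 0.08) without atRA culture 2 or DMSO culture 1 (adjusted p up to 0.10). The H2 genes are similar copies whose reads may be shared. Of 26 chemokine and cytokine genes 2 rose and 2 fell (3 and 2 with scaling, median -0.27), with 1 to 2 of each when 1 culture was left out, 1 rise without atRA culture 2 and 1 fall without atRA culture 1. The chemokine gene Ccl28 had 7.44, 7.48, 7.86 and 6.72 RPKM with atRA, against 14.0, 14.9, 12.4 and 12.2 RPKM with DMSO, and changed by -0.78 ± 0.13 (adjusted p = 0.00099).

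Among 10 tested genes for enzymes and inhibitors of pancreatic type, 1 rose and 1 fell, with and without scaling (median -0.13). Ctrb1, chymotrypsinogen B, had 4.77, 5.51, 4.45 and 4.35 RPKM with atRA, against 20.2, 26.7, 53.9 and 45.1 RPKM with DMSO, and changed by -2.60 ± 0.37 (adjusted p = 0.00029); the atRA libraries lay close together, while DMSO culture 2 stood above DMSO culture 1. Spink1, which encodes a trypsin inhibitor, rose by 2.15 ± 0.54 and lost the call without atRA culture 2 or DMSO culture 1 (adjusted p up to 0.21).

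Of the lists described here, that of fetal-like and regenerating epithelium held the most falls. These genes mark the intestinal epithelium before birth and after injury; of 28 tested, 15 fell and 0 rose (11 and 0 with scaling), with a median of -1.06 (-0.92 with scaling). With 1 culture left out 4 to 14 fell, the fewest without atRA culture 2. Anxa8, an annexin, had 1.04, 1.45, 1.09 and 0.934 RPKM with atRA, against 9.30, 8.71, 7.55 and 8.04 RPKM with DMSO, and changed by -2.14 ± 0.26 (adjusted p = 4e-05). All atRA libraries lay below all DMSO libraries. S100a6, a calcium-binding protein at high levels, had 212, 213, 134 and 140.0 RPKM with atRA, against 848, 798, 594 and 651 RPKM with DMSO (-2.06 ± 0.40). Anxa1, annexin A1, had 24.3, 25.7, 12.1 and 14.3 RPKM with atRA, against 103, 105, 66.0 and 70.0 RPKM with DMSO (-2.15 ± 0.52). The S100a6 call was lost without atRA culture 2 (adjusted p = 0.063) and that of Anxa1 without atRA culture 2 or DMSO culture 1 (adjusted p up to 0.16). The keratin gene Krt19 fell as well (-0.70 ± 0.13), but not without atRA culture 2 (adjusted p = 0.063). S100a14 (-1.95 ± 0.56) was called as deposited, but not with scaling (adjusted p = 0.057) or without atRA culture 2 or DMSO culture 1 (adjusted p up to 0.29). S100a7a had 1.25, 2.14, 0.510 and 1.54 RPKM with atRA, against 8.41, 9.92, 6.86 and 6.54 RPKM with DMSO (-1.95 ± 0.36).

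Genes that the coactivator YAP is known to induce overlap that list. Of 23 tested, 8 fell and 0 rose (6 and 0 with scaling, median -0.61), and 1 to 8 fell with 1 culture left out, the fewest without atRA culture 2. Mesothelin (Msln), on both lists, had 63.5, 67.2, 53.6 and 57.9 RPKM with atRA, against 285, 208, 187 and 181 RPKM with DMSO, and changed by -1.79 ± 0.34 (adjusted p = 0.0031). Clusterin (Clu), a secreted chaperone, had 69.5, 75.6, 72.0 and 75.4 RPKM with atRA, against 168, 158, 184 and 183 RPKM with DMSO, and changed by -1.23 ± 0.26. The Clu call was lost without atRA culture 2 (adjusted p = 0.052), that of Myof (-1.55 ± 0.34) without atRA culture 2 or DMSO culture 1 (adjusted p up to 0.12) and that of Amotl1 (-0.60 ± 0.14) without atRA culture 2 or DMSO culture 1 (adjusted p up to 0.11). Of 13 keratins 5 fell and 0 rose (4 and 0 with scaling, median -0.56), and 1 to 5 fell with 1 culture left out, the fewest without atRA culture 2. Krt4, a keratin of stratified epithelium, had 2.26, 2.93, 1.70 and 1.74 RPKM with atRA, against 13.6, 13.2, 11.4 and 11.1 RPKM with DMSO, and changed by -2.09 ± 0.35 (adjusted p = 0.00099). Krt7, a keratin of ducts, changed by -0.88 ± 0.21, a call lost without atRA culture 2 or DMSO culture 1 (adjusted p up to 0.14). The caveolin gene Cav2 changed by -2.04 ± 0.31, and the serpin gene Serpinb5 by -1.97 ± 0.37, a call lost without atRA culture 2 (adjusted p = 0.057). Efemp1 (-2.32 ± 0.46), a matrix protein gene, Syt8 (-2.11 ± 0.46) and Tmem237 (-1.97 ± 0.44) fell too. Their calls were lost without atRA culture 2 or DMSO culture 1 (adjusted p up to 0.066) for Efemp1, without atRA culture 2 or DMSO culture 1 (adjusted p up to 0.10) for Syt8 and without atRA culture 2 or DMSO culture 1 (adjusted p up to 0.15) for Tmem237, which then stood at -1.37.

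Type IV collagen led the falls among basement membrane genes. Of 26 tested genes for basement membrane and integrins, 7 fell and 0 rose (4 and 0 with scaling, median -0.43), and 3 to 5 fell with 1 culture left out, the fewest without atRA culture 2. Col4a1, a chain of the collagen network under the epithelium, had 0.814, 1.13, 0.855 and 0.880 RPKM with atRA, against 8.58, 8.30, 8.59 and 8.90 RPKM with DMSO, and changed by -2.32 ± 0.22 (adjusted p = 2.6e-06). Col4a2, its partner chain, had 0.769, 0.867, 0.762 and 0.598 RPKM with atRA, against 8.05, 7.07, 7.37 and 7.05 RPKM with DMSO, and changed by -2.26 ± 0.22 (adjusted p = 3.4e-06). The 2 genes moved side by side, with all atRA libraries under 1.2 RPKM and all DMSO libraries above 7 RPKM. They lie head to head on chromosome 8, on opposite strands, with starts 21 bases apart in the RefSeq annotation of GRCm38.p6. Col4a1 starts at 11312826 on the minus strand and Col4a2 at 11312805 on the plus strand. The annotated genes thus overlap between their starts, and the stretch is no gap between them. The window of Col4a1 (chr8:11312777-11313076, minus strand) is shown because it spans both starts, and the capitals run from the start of Col4a1 to that of Col4a2.
Col4a1 promoter: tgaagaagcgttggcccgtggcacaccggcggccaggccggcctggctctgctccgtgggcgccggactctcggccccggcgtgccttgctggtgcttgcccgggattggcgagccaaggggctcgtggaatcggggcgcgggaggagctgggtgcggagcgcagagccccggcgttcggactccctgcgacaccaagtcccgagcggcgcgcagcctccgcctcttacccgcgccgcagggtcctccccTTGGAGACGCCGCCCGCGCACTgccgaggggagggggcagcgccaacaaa
Nid1, nidogen, which links collagen to laminin, had 1.69, 1.65, 1.14 and 1.23 RPKM with atRA, against 5.85, 6.39, 4.55 and 5.07 RPKM with DMSO, and changed by -1.41 ± 0.27 (adjusted p = 0.0028). Col18a1 changed by -1.05 ± 0.21, a call lost without atRA culture 2 or DMSO culture 1 (adjusted p up to 0.077). Of 16 genes for claudins and tight junctions 0 passed the test in either direction with limma, with and without scaling, or with limma-voom, and at an unadjusted p under 0.05 none was higher and 3 were lower.

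Most stem cell, Wnt and Notch genes did not pass the test, but the falls in each list exceeded the share over all genes tested. Over all genes tested, 3.58% were higher and 7.35% lower (5.34% and 2.95% with scaling). Of 20 stem cell markers 1 rose and 4 fell (1 and 2 with scaling, median -0.12), and 0 rose and 0 to 4 fell with 1 culture left out, none of them without atRA culture 2. The 4 defining stem cell markers summed to 101 to 126 RPKM with atRA, against 81.5 to 154 RPKM with DMSO. Hopx had 79.5, 77.7, 76.6 and 82.7 RPKM with atRA, against 106, 121, 119 and 121 RPKM with DMSO, and changed by -0.56 ± 0.12; Tnfrsf19, under 1 RPKM throughout, changed by -0.58 ± 0.13. The Hopx call was lost without atRA culture 2 or DMSO culture 2 (adjusted p up to 0.059) and that of Tnfrsf19 without atRA culture 2 (adjusted p = 0.073). Fgfbp1 (-0.37 ± 0.10) was not called with scaling (adjusted p = 0.31) or without atRA culture 2, DMSO culture 1 or DMSO culture 2 (adjusted p up to 0.23), and Prom1 (-0.50 ± 0.15) not with scaling (adjusted p = 0.17) or without atRA culture 2 or DMSO culture 1 (adjusted p up to 0.29). Lgr5, the Wnt-enhancing receptor that defines crypt base stem cells, was named after its values were seen, with 8.94, 8.67, 5.99 and 5.92 RPKM with atRA, against 10.3, 8.93, 10.5 and 9.06 RPKM with DMSO (-0.37 ± 0.24, adjusted p = 0.32). Its 2 groups overlapped. Of 18 Wnt targets 0 rose and 2 fell (0 and 1 with scaling, median -0.01), Tnfrsf19 and cyclin D1 (Ccnd1, -0.56 ± 0.15). The Ccnd1 call was lost with scaling (adjusted p = 0.084) and with any 1 of the 4 cultures left out (adjusted p up to 0.14). Of 15 Notch and secretory fate genes 0 rose and 4 fell (0 and 2 with scaling, median 0.01), and 1 to 2 fell with 1 culture left out, the fewest without atRA culture 2. The Notch ligand Jag2 had 3.18, 3.20, 1.76 and 2.05 RPKM with atRA, against 7.92, 6.70, 6.27 and 5.90 RPKM with DMSO, and changed by -1.14 ± 0.20 (adjusted p = 0.0012). Jag1 changed by -0.66 ± 0.13, a call lost without atRA culture 2 or DMSO culture 1 (adjusted p up to 0.060). Hes1 (-0.29 ± 0.08) was not called with scaling (adjusted p = 0.45) or with any 1 of the 4 cultures left out (adjusted p up to 0.15). Notch2 (-0.34 ± 0.10) was not called with scaling (adjusted p = 0.13), with any 1 of the 4 cultures left out (adjusted p up to 0.24) or without library 1 of atRA culture 1, library 2 of atRA culture 2 or library 1 of DMSO culture 1 (adjusted p up to 0.091).

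Among cell cycle genes, falls were found in mitosis genes and hardly in DNA replication genes. Of 38 mitosis genes 13 fell and 0 rose as deposited, with a median of -0.48, and 4 and 0 with scaling, with a median of -0.31. With 1 culture left out 0 to 6 fell, none of them without atRA culture 2. Ccnb2, cyclin B2, had 41.6, 40.0, 37.3 and 39.5 RPKM with atRA, against 58.5, 64.6, 66.8 and 71.2 RPKM with DMSO, and changed by -0.70 ± 0.16 (adjusted p = 0.011), a call lost without atRA culture 2 or DMSO culture 2 (adjusted p up to 0.10). Kif23, a motor of cell division, changed by -0.72 ± 0.18 and Prc1, which bundles spindle microtubules, by -0.57 ± 0.14. The Kif23 call was lost without atRA culture 2, DMSO culture 1 or DMSO culture 2 (adjusted p up to 0.16) and that of Prc1 without atRA culture 2, DMSO culture 1 or DMSO culture 2 (adjusted p up to 0.16). Of 43 DNA replication genes 1 fell, Rrm2 (-0.65 ± 0.13), the small subunit of ribonucleotide reductase, and 0 rose, with and without scaling (median -0.14); the Rrm2 call was lost without atRA culture 2 or DMSO culture 1 (adjusted p up to 0.10). Among 31 intestinal transcription factors 2 rose and 0 fell (3 and 0 with scaling, median -0.03), Isx and Creb3l3, which controls lipid genes in liver and intestine. It had 172, 166, 224 and 228 RPKM with atRA, against 47.2, 51.4, 58.7 and 61.4 RPKM with DMSO, and rose by 1.83 ± 0.31 (adjusted p = 0.0012). Of 21 genes for chaperones of the endoplasmic reticulum 1 rose, P4hb (0.51 ± 0.14, list median -0.12). Of 19 genes of the integrated stress response 1 fell, Nupr1 (-1.46 ± 0.41, list median -0.40). With scaling 0 of the 19 fell, and with the culture as a block 3 fell. Over all genes tested, 3.58% were higher and 7.35% lower as deposited. The P4hb call was lost without atRA culture 1, atRA culture 2 or DMSO culture 2 (adjusted p up to 0.13), and that of Nupr1 with scaling (adjusted p = 0.063) and without atRA culture 2 or DMSO culture 1 (adjusted p up to 0.33).

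The day 4 effect was then set against that of day 3, when the medium was switched, as a test of the difference between the 2 effects. It was more positive on day 4 for 16 genes (0.129%) and more negative for 22 (0.177%) of 12445, and with the culture as a block for 23 and 38. The Fabp6 effect was 1.17 on day 3 and 6.12 on day 4, a difference of 4.95 ± 0.45 (adjusted p = 3.5e-05, but 0.72 with limma-voom). Fabp6 lay at 0.754 to 2.57 RPKM with atRA on day 3, against 0 to 0.350 RPKM with DMSO. S100g had an effect of -0.24 on day 3 and 1.84 on day 4 (difference 2.07 ± 0.36), and the magnesium channel gene Trpm6 of 0.21 and 1.53 (difference 1.32 ± 0.12, adjusted p = 3.5e-05). The scaffold gene Pdzk1 gained 1.52 ± 0.26, and Cyp4a10 gained 1.31 ± 0.18. Tgm1, a transglutaminase of stratified epithelium, had an effect of -2.45 on day 3 and -0.54 on day 4 (difference 1.91 ± 0.28).

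Several genes of enterocytes had a smaller effect on day 4 than on day 3. Fabp1 had an effect of 7.12 on day 3 and 3.27 on day 4, a difference of -3.84 ± 0.50 (adjusted p = 0.0022). On day 3 Fabp1 lay at 7273 to 7982 RPKM with atRA, against 40.2 to 72.5 RPKM with DMSO. On the log2 scale, the DMSO level of 2139 to 2529 RPKM on day 4 lay farther from its day 3 level than the atRA level did. In RPKM the atRA level moved farther. Sis, with an effect of 2.94 on day 3 and 0.58 on day 4 (difference -2.36 ± 0.31), lay at 2.84 to 5.10 RPKM with DMSO on day 3 and 206 to 214 RPKM with DMSO on day 4. The alkaline phosphatase genes Alpi (difference -2.18 ± 0.24) and Akp3 (-1.98 ± 0.30), the cytochrome gene Cyp2c66 (-2.35 ± 0.33) and the apolipoprotein gene Apoa1 (-1.82 ± 0.33) changed the same way. The median effect over 34 enterocyte markers was 1.69 on day 3, 0.78 on day 4 and -0.05 on day 5, while that over 44 PPAR targets was 1.15, 1.19 and 0.95. Ctrb1 differed from both patterns, with 0.04 on day 3, -2.60 on day 4 and -4.54 on day 5. Trpm6, Fabp1, Sis, Alpi and Cyp2c66 kept the call in every alternative run for them. Other calls were lost in unpaired fits that left 1 culture out of 1 group. With the culture as a block and all cultures kept, 0 calls of the genes named by rule were lost. In the leave-out fits, S100g lost its call without atRA culture 2, DMSO culture 1 or DMSO culture 2. Pdzk1 lost it without atRA culture 1 or DMSO culture 2, and Apoa1 without atRA culture 1, DMSO culture 1 or DMSO culture 2. Ctrb1 lost it without atRA culture 1, atRA culture 2 or DMSO culture 2. For Ctrb1 the adjusted p of the difference also exceeded 0.05 without library 1 of atRA culture 1, library 2 of atRA culture 2 or library 2 of DMSO culture 1 (up to 0.078). With limma-voom it was 1.0 for Cyp4a10, Pdzk1, Tgm1 and Ctrb1 and 0.20 for Apoa1, and with scaling it was 0.064 for Ctrb1 and 0.097 for Apoa1. With a pseudocount of 0.1 RPKM it was 0.074 for S100g, 0.13 for Pdzk1 and Tgm1, 0.16 for Ctrb1 and 0.57 for Cyp4a10.

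**Figure D5:**
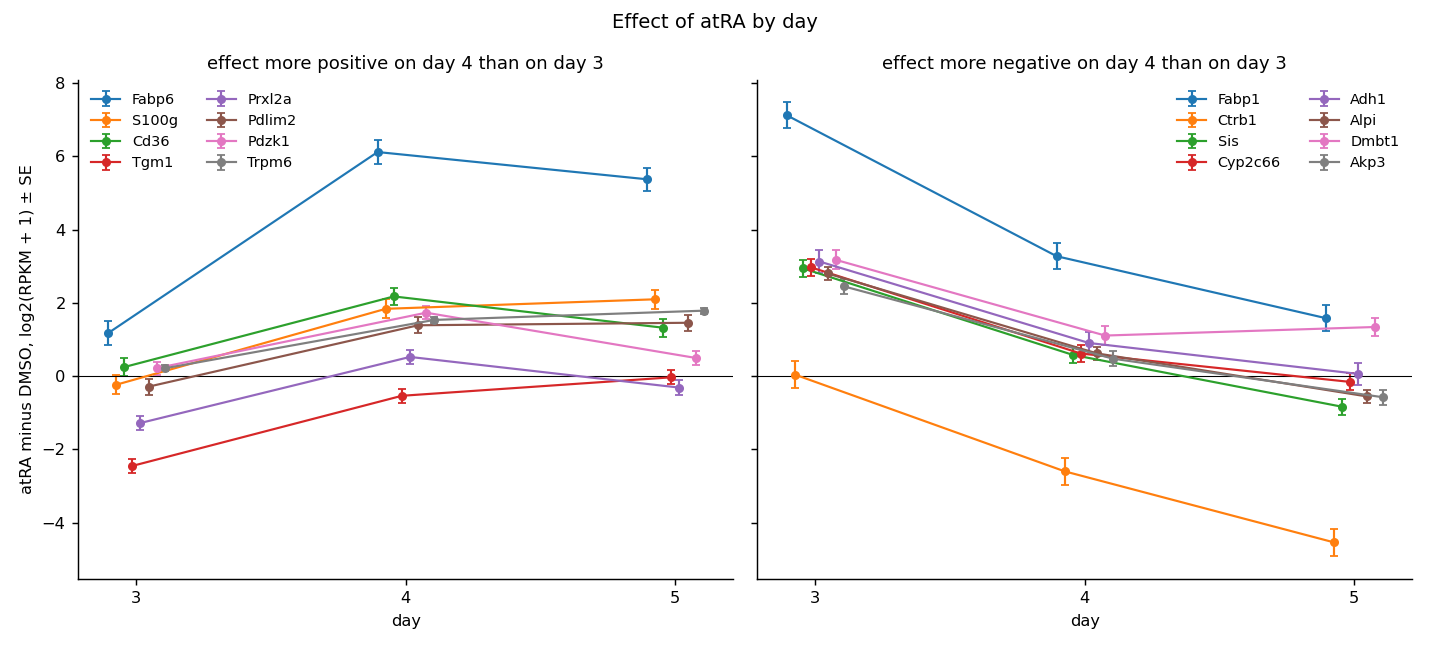
The atRA minus DMSO difference in log2(RPKM + 1), with its standard error, is plotted against the day for the 8 genes whose effect was most positive (left) and most negative (right) on day 4 relative to day 3. Fabp6 climbs between days 3 and 4, all 8 genes on the right come down between these days, and Ctrb1 is lower again on day 5.

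Against day 5, 0 genes had a different effect on day 4 in either direction at an adjusted p under 0.05 (limma), while 400 and 987 were more positive and more negative at an unadjusted p under 0.05. With limma-voom these were 1 and 0, with the culture as a block 2 and 4 and with no filter on low values 7 and 5. A p above the threshold does not show that the effects of days 4 and 5 were alike. The values of single genes are therefore given side by side: G6pc stood at 3.06 on day 4 and 0.82 on day 5, Cyp26b1 at 4.07 and 5.29, and Wfdc2 at -3.24 and -2.59. The median over the fetal-like list was -1.17 on day 3, -1.06 on day 4 and -0.66 on day 5.

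The RXR antagonist organoids of day 4 share their DMSO libraries with this comparison, so their levels are given as ranges and are not tested against it. The genes given here were chosen after their values were seen. Wfdc2, Col4a1 and Anxa8, which fell with atRA, stood above DMSO with the antagonist. Wfdc2 lay at 1.22 to 1.99 RPKM with atRA and 173 to 226 RPKM with RXRi, against 22.3 to 25.8 RPKM with DMSO. Col4a1 lay at 0.814 to 1.13 RPKM with atRA and 62.1 to 67.2 RPKM with RXRi, against 8.30 to 8.90 RPKM with DMSO. Anxa8 lay at 0.934 to 1.45 RPKM with atRA and 152 to 171 RPKM with RXRi, against 7.55 to 9.30 RPKM with DMSO. Fabp1 and G6pc, which rose with atRA, stood below DMSO with the antagonist. Fabp1 lay at 21801 to 23842 RPKM with atRA and 99.9 to 172 RPKM with RXRi, against 2139 to 2529 RPKM with DMSO. G6pc lay at 26.1 to 36.2 RPKM with atRA and 0 to 0.0775 RPKM with RXRi, against 2.27 to 3.85 RPKM with DMSO. Other genes lay on the same side of DMSO with both compounds. Ctrb1, lower with atRA, was at 0 to 0.277 RPKM with RXRi, against 20.2 to 53.9 RPKM with DMSO, and Tmem237 was at 2.29 to 2.93 RPKM, against 17.0 to 39.8 RPKM. Plin2, higher with atRA, was at 168 to 179 RPKM with RXRi, against 48.6 to 55.4 RPKM with DMSO.

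Markers of the epithelium were present in all 8 libraries while the defining markers of mesenchyme and of endothelium summed to under 1 RPKM and a few immune markers were detected. The 10 epithelial markers summed to 4741 to 5662 RPKM with atRA, against 6849 to 7614 RPKM with DMSO; 0 rose and 2 fell, Krt8 and Krt19, and Krt8 was not called with scaling (adjusted p = 0.089). The intestinal genes Vil1, at 348 to 377 RPKM with atRA and 295 to 336 RPKM with DMSO, and Cdx2, at 117 to 121 and 118 to 141 RPKM, were abundant. The 7 mesenchymal markers summed to 0.239 to 0.384 RPKM with atRA, against 0.238 to 0.504 RPKM with DMSO, with Col3a1, Dcn and Lum at 0. The 7 immune markers summed to 3.27 to 3.59 RPKM with atRA, against 2.73 to 3.01 RPKM with DMSO, with Cd8a at 0; every atRA library stood above every DMSO library. Most of this sum was Itgam, an integrin of myeloid cells, at 3.53, 3.42, 3.19 and 3.54 RPKM with atRA, against 2.95, 2.87, 2.85 and 2.69 RPKM with DMSO (adjusted p = 0.27). Of 12 genes on the longer immune list 3 passed the filter, and 0 were called in either direction by limma, with or without scaling, or by limma-voom, and 0 at an unadjusted p under 0.05. Lyz2, a lysozyme gene that is also on the Paneth list, had 25.7, 24.7, 19.2 and 21.1 RPKM with atRA, against 13.9, 17.6, 13.9 and 16.4 RPKM with DMSO (0.52 ± 0.27). Cd68, of macrophages, had 1.04 to 3.60 RPKM with atRA, against 1.65 to 7.36 RPKM with DMSO (-0.60 ± 0.47). The groups did not overlap for Itgam and Lyz2 and overlapped for Cd68. The 5 endothelial markers summed to 0.0552 to 0.119 RPKM with atRA, against 0.0728 to 0.182 RPKM with DMSO, with Kdr and Emcn at 0. Vim, a mesenchymal gene that some epithelial cells also express, was at 6.39, 5.06, 4.51 and 4.18 RPKM with atRA, against 2.09, 2.38, 1.95 and 2.64 RPKM with DMSO (0.88 ± 0.24), a call lost with any 1 of the 4 cultures left out (adjusted p up to 0.14). The part of such cells in the results was not tested.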

How the data were processed

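The authors deposited 1 table of RPKM values for 24116 genes in 52 libraries; per the submitters' processing notes, reads were demultiplexed with bcl2fastq 2.17 and aligned to mm10 with STAR 2.5.2b. Which counter was used, and whether it read the strand, is not given in the sources here. Each value was a whole multiple of what 1 read is worth (tolerance 0.001), which gave 12895667 to 26206028 reads in 51 libraries; 1 day 1 library had 12443 and was left out of the fit. Values were put on log2(RPKM + 1), with RPKM as the authors deposited it, and the 2 purifications of a culture were averaged. Duplicates differed (chi-square per gene 1.98 to 15.1) by less than cultures did (28.5 to 36.8), and 0 pairs were identical. limma 3.58.1 (R 4.3.3, trend and robust) was fitted to 26 culture means in 13 groups, with 13 residual degrees of freedom, on the 12445 genes that reached 1 RPKM in 4 or more libraries; 11671 did not reach it. P-values were adjusted by Benjamini-Hochberg over all genes tested, with a threshold of 0.05, and the day 4 effect was tested against those of days 3 and 5 as an interaction. The culture numbers pair the samples, since per the labels the same 2 organoid cultures, from littermates, received all treatments; deviations of atRA and DMSO cultures on day 4 correlated at 0.711, and the median over 78 pairs of groups was 0.149, with 47 above 0.1 and a range of -0.317 to 0.759. Alternatives were median-of-ratios scaling, a pseudocount of 0.1 RPKM, no filter or one of 5 RPKM, other sets of groups, the culture as a replicate block, each culture or library left out, and limma-voom on the recovered reads. The unit being RPKM, the 2 count tests planned were not run. The scripts were tested on simulated data. The comparison, the 45 gene lists and the tests were chosen with earlier results of these data known. Genes named are, by rule, the 15 largest changes each way among called genes whose libraries did not overlap, up to 4 members of each list with the smallest p, the measured members of 3 lists (targets, receptors, lipid-binding proteins) and the 8 largest called differences each way between days; others are said to be named after their values were seen. Predicted gene models are counted and not named, and some genes that meet the rule are not reported here. Tables and figures were made with Python 3.11.15, pandas 2.3.3, numpy 2.4.6 and matplotlib 3.10.9. Promoter windows and gene positions are from RefSeq on GRCm38.p6; 9793 of 12445 genes tested had at least 1 window, 12431 windows in all.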

Additional observations from a re-analysis of the deposited data

Results flagged for a closer look

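For 6 genes reported here, 1 of the 4 libraries of a group stood apart from the other 3 by Dixon's criterion, which flags about 1 in 20 groups by chance. They were 7.17 RPKM for Cyp4a32 and 0.866 RPKM for Pyy among the atRA libraries, and, among the DMSO libraries, 106 RPKM for Hopx, 300 RPKM for Itln1, 10.8 RPKM for Irf1 and 130.3 RPKM for H2-D1.

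The atRA effect was more positive on day 4 than on day 3, by a test of the difference itself, by 4.95 for Fabp6, 2.07 for S100g, 1.93 for Cd36, 1.91 for Tgm1 (a smaller fall on day 4), 1.80 for Prxl2a, 1.68 for Pdlim2, 1.52 for Pdzk1, 1.32 for Trpm6, 1.31 for Cyp4a10, 1.16 for Cyp4a32 and 0.79 for Cyp4a31 on the log2 scale. It was lower on day 4 than on day 3, with a difference of -3.84 for Fabp1, -2.64 for Ctrb1, -2.36 for Sis, -2.35 for Cyp2c66, -2.22 for Adh1, -2.18 for Alpi, -2.07 for Dmbt1, -1.98 for Akp3, -1.97 for Ces1f, -1.82 for Apoa1, -1.49 for Akr1c14 and -1.10 for Ppara. Of these 23 differences, 14 were no longer called with the shallow day 1 library kept, 15 with only days 3 to 5 in the fit and 12 with at least 1 of the day 4 cultures left out. Beside those given above, the call was lost without atRA culture 1, DMSO culture 1 or DMSO culture 2 (adjusted p up to 0.22) for Ppara, without atRA culture 1, atRA culture 2 or DMSO culture 1 (adjusted p up to 0.092) for Akr1c14, without atRA culture 1 or DMSO culture 2 (adjusted p up to 0.14) for Ces1f, with any 1 of the 4 cultures left out (adjusted p up to 0.22) for Adh1, without atRA culture 1 or DMSO culture 2 (adjusted p up to 0.11) for Dmbt1, without atRA culture 2 or DMSO culture 1 (adjusted p up to 0.092) for Cd36, without atRA culture 1 or DMSO culture 2 (adjusted p up to 0.17) for Pdlim2 and without atRA culture 2, DMSO culture 1 or DMSO culture 2 (adjusted p up to 0.11) for Cyp4a31. Leaving out library 2 of atRA culture 2 also ended the calls of Ppara, Pdlim2 and Adh1, and leaving out library 2 of atRA culture 1 that of Cyp4a31. With scaling the adjusted p was 0.19 for Ppara, 0.070 for Ces1f and 0.097 for Adh1. With limma-voom it was 0.61 for Akr1c14, 0.13 for Ces1f and Pdlim2, 0.14 for Adh1 and 1.0 for Cd36, Cyp4a31 and Cyp4a32.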

How the results depend on the processing

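Counts are of genes called in each fit and need not be the same genes. In place of the 446 higher and 915 lower genes on day 4, 173 and 90 were called with the shallow day 1 library kept, 295 and 365 with only days 3 to 5 in the fit, 140 and 89 with only the 2 day 4 groups, 691 and 404 with limma-voom, and 799 and 452 with scaling and a replicate block; scaling alone gave 367 lower. With the pairing by culture as a replicate block alone, 525 and 1190 were called. Leaving out 1 culture or library gave 214 to 473 higher and 203 to 1026 lower. For day 4 minus day 3 (16 more positive, 22 more negative), 5 were more positive with a pseudocount of 0.1 RPKM, 5 with the shallow library kept, 4 with days 3 to 5 only and 8 with limma-voom. More negative were 11 with scaling, 12 with no filter, 5 with the shallow library, 7 with days 3 to 5 only, 11 with limma-voom and 38 with the replicate block. Leave-outs gave 8 to 21 and 7 to 29. For day 4 minus day 5 (0 and 0 with limma; 400 and 987 at an unadjusted p under 0.05), no filter gave 7 and 5, the block 2 and 4, limma-voom 1 more positive, scaling with the block 2, and leave-outs 0 to 2 and 0 to 4. With limma-voom the difference between days 4 and 3 reversed for Cd36 (-0.48), Cyp4a31 (-0.019) and Cyp4a32 (-0.57); the cause was not tested. The replicate block added calls for 9 of the genes named by rule on day 4 and changed no other of their calls. limma-voom and scaling with the block were chosen after seeing the data. The 2 planned count tests were not run. For genes near 0 in a group, such as Fabp6 with 0 to 2 reads in DMSO libraries, depth limits the size of the change. With 2 cultures per group from 2 littermates, a call that missed the threshold does not show that a gene did not change.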
